A study of Oryza sativa Indica Group with 6 samples.

Results

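The MADS box transcription factors of rice were followed through 3 stages of pollen development. A gene was a member where its symbol or a synonym in the RefSeq gene table was MADS followed by a number, with or without the prefix Os. The rule found 31 genes, and each had at least 1 probe set assigned to it alone, so that 31 of the 17905 genes and 39 of the 57194 probe sets tested are members. A single probe set measured 27 of the genes, 4 probe sets each measured MADS14 and MADS15, and 2 each measured MADS23 and MADS27. Male gametophytes of the indica rice variety Guichao No.2, grown in the field, were collected as uninucleate microspores (UNM), as bicellular pollen (BCP) with a vegetative and a generative cell, and as tricellular pollen (TCP), which carries sperm cells besides the vegetative cell. The labels give 2 biological replicates a stage, hybridised to 6 Affymetrix arrays in all. The labels name no treatment, mutation or transgene, and they do not say how many plants a replicate pooled.

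MADS box proteins bind DNA as dimers at CArG boxes, and those of the MIKC type also join into complexes of 4 proteins. In the flower, combinations of classes set the identity of organs: class B and C genes specify stamens, class D genes ovules, and class E (SEPALLATA-like, SEP) genes are partners of the others. Other MIKC genes time flowering or act in roots. All 31 members belong to clades of this classic MIKC type. The MIKC* clade, known for its role in pollen, and the type I genes had no member under the rule and were not analysed here.

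Values are log2 signals, given for replicates 1 and 2 of a stage in that order, and each difference is on the log2 scale, followed by its standard error (SE). A gene rose or fell where limma's Benjamini-Hochberg adjusted p, taken over all probe sets, lay below 0.05 and its difference reached 1 or more in size. The 64 probe sets for laboratory reporter genes served as background, and their 95th percentile was 5.22 and 5.00 in UNM, 5.60 and 5.70 in BCP and 5.72 and 5.84 in TCP. Where the lower stage lay at or under this level on both arrays, a fold is given as a lower bound against that level. A gene with several probe sets is represented by the brightest. Averaged over 14 probe sets for transcripts added before hybridization, the control signal was 0.20 higher in BCP than in UNM and 1.24 higher in TCP than in BCP. By array it was 7.77 and 7.22 in UNM, 7.78 and 7.61 in BCP and 8.97 and 8.90 in TCP, so that UNM and BCP overlapped. After scaling by these hybridization controls the median TCP minus BCP difference of all probe sets was -1.09, against 0.14 as deposited, so rises in TCP are given with their value under that scaling too.

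In BCP against UNM, 12 of the 31 genes fell and 4 rose, 16 in all, where 42.3% of all genes were called. Over all genes 25.1% fell and 17.1% rose, so that the share of rises among members, 12.9%, was below that of all genes and the share of falls, 38.7%, above it. Counted by probe sets, 13 of 39 fell and 5 rose, against 12.3% and 9.27% of all probe sets. Among all probe sets 34663 have no gene, unlike those of the members. The shares by probe sets, here and below, are thus less alike in kind than those by genes. The falls took in all 5 SEP-like genes, both AGL6-like genes, the class B gene MADS16 and 1 gene each of classes C and D, of the AP1/FUL-like clade and of the SVP-like clade. In TCP against BCP 4 genes fell and 3 rose, 7 in all, where 28.6% of all genes fell, 8.52% rose and 37.1% were called either way. By probe sets 4 fell and 4 rose, against 13.3% and 5.94% of all probe sets. In TCP against UNM 14 fell and 4 rose, 18 in all, where 37.7% of all genes fell, 14.4% rose and 52% were called either way. These 4 rises include MADS20, which was under background on all 6 arrays. By probe sets 15 fell and 5 rose, against 17.9% and 12.1% of all probe sets. The median difference of the members was -0.17 for BCP minus UNM, 0.045 for TCP minus BCP and -0.63 for TCP minus UNM, beside -0.12, -0.06 and -0.34 over all genes. In bulk samples such as these, fewer cells of a type and less RNA per cell cannot be told apart.

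**Figure D1:**
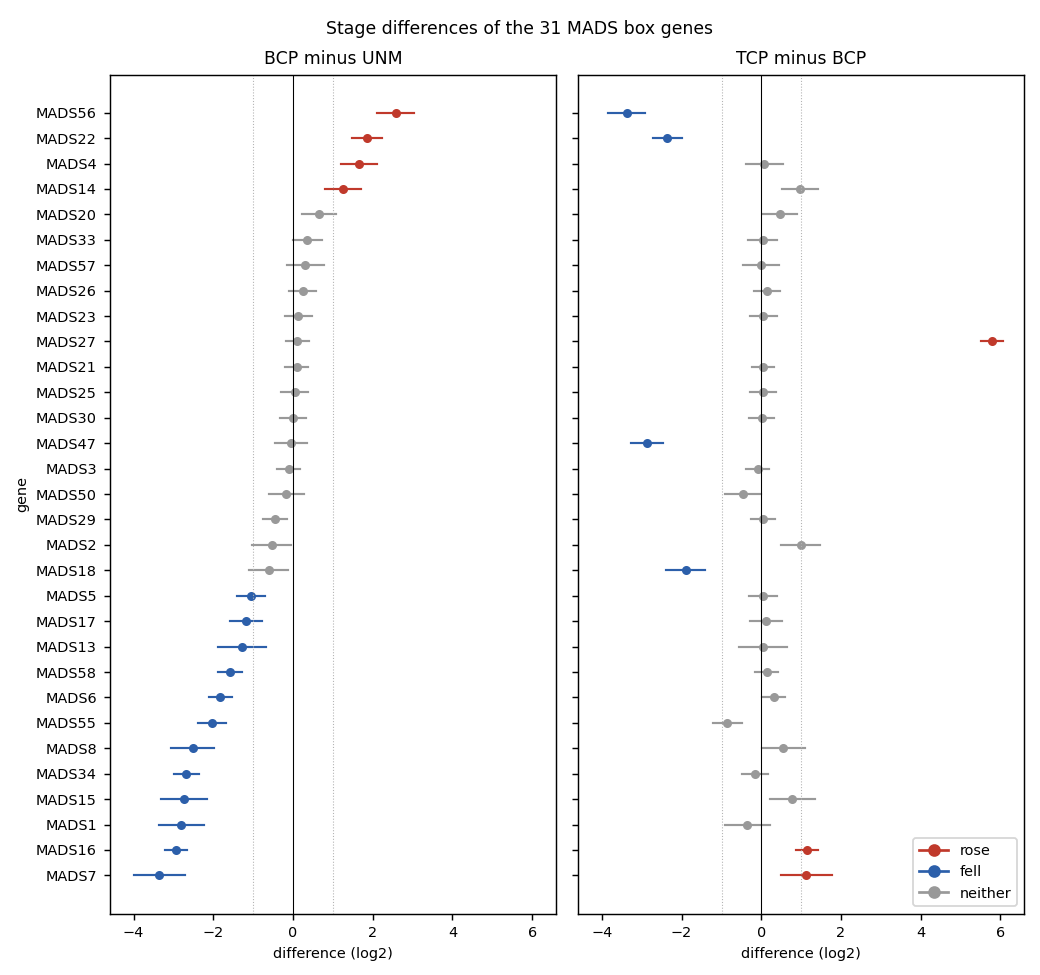
Log2 differences of the 31 MADS box genes, BCP minus UNM on the left and TCP minus BCP on the right, with 95% confidence intervals from limma; dotted lines mark a difference of 1 in either direction. The 12 falls in BCP run from -1.06 to -3.36, and MADS27 stands at 5.78 in TCP.

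Across the 3 stages 20 of the 31 genes changed by the moderated F test, where 63.4% of all genes did. Of these 20, 14 had their highest mean in UNM, 2 in BCP and 4 in TCP. Among all changed genes the corresponding shares were 52.6%, 28.7% and 18.6%. Of the 4 members with their highest mean in TCP, MADS20 was under background on all 6 arrays. The calls sorted the members into few patterns: 10 genes fell in BCP and were low in TCP with no further call, 2 fell in BCP and rose in TCP, 2 fell only in the step to TCP, 2 rose in BCP and fell in TCP, 2 rose in BCP with no further call in the step to TCP, MADS27 rose in TCP, MADS20 differed only between TCP and UNM, and 11 gave no call.

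**Figure D2:**
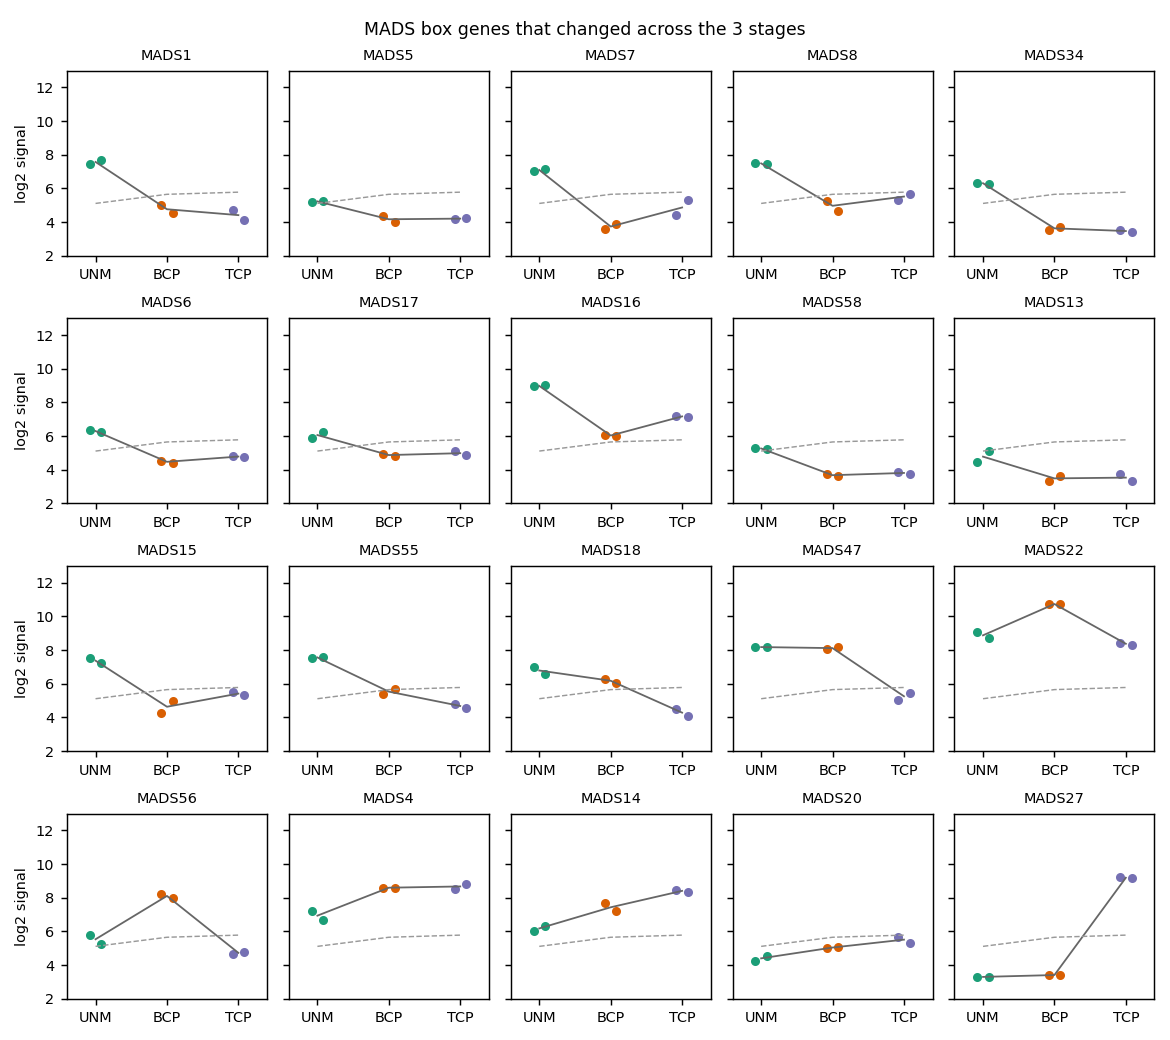
Log2 signal of the 20 MADS box genes that changed across the 3 stages, with a point per array, a line through the stage means and a dashed line for the reporters' 95th percentile averaged over the arrays of a stage. Most genes of the upper rows were above the dashed line in UNM and under it in BCP, MADS22 and MADS56 peaked in BCP, and MADS27 was high in TCP alone among the 3 stages.

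The SEP-like genes, class E, fell together in BCP. MADS1, also named Lhs1 and needed for the identity of lemma and palea, had signals of 7.45 and 7.70 in UNM, 5.00 and 4.53 in BCP and 4.69 and 4.14 in TCP. Both UNM arrays were above all others, and no BCP or TCP array passed the background level. Its difference was -2.81 (SE 0.24, adjusted p 7.61e-05) for BCP minus UNM, which is at least 3.79-fold lower. MADS7, also named MADS45, had 7.05 and 7.15 in UNM, 3.57 and 3.91 in BCP and 4.45 and 5.29 in TCP, with a difference of -3.36 (SE 0.27, adjusted p 5.87e-05) for BCP minus UNM, at least 2.72-fold lower. No BCP or TCP array of MADS7 passed the background level. Its difference from BCP to TCP was 1.13 (SE 0.27, adjusted p 0.0151), which passed the test although all 4 arrays lay under the background level. That rise was lost without BCP replicate 1 (0.96, adjusted p 0.0998), without TCP replicate 2 (0.71, adjusted p 0.0293) and after centring on the median (0.98), and was -0.11 after scaling by the hybridization controls.

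MADS8, also named MADS24, had 7.51 and 7.47 in UNM, 5.29 and 4.66 in BCP and 5.34 and 5.70 in TCP. It fell by 2.52 (SE 0.23) in BCP, at least 3.57-fold. MADS34, which acts in the inflorescence meristem, had 6.34 and 6.29 in UNM, 3.54 and 3.73 in BCP and 3.56 and 3.39 in TCP, and fell by 2.68 (SE 0.14) in BCP. Taken against the background level of the BCP arrays, 5.60 and 5.70, the fall was at least 1.58-fold. MADS5 had 5.21 and 5.26 in UNM, 4.34 and 4.0 in BCP and 4.19 and 4.23 in TCP, and its fall of 1.06 (SE 0.15) gave no bound above 1. Only 1 of its 6 arrays passed the background level, and its call in BCP was lost without BCP replicate 2 (-0.89), with arrays centred on their 75th percentile (-0.89) and after a repeated quantile normalization (-0.99). From BCP to TCP none of MADS1, MADS5, MADS8 and MADS34 passed, with 95% confidence intervals from -0.91 to 0.21 for MADS1, from -0.32 to 0.39 for MADS5, from 0.01 to 1.09 for MADS8 and from -0.48 to 0.16 for MADS34.

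The AGL6-like genes, close relatives of the SEP-like clade, fell as well. MADS6, which controls floral organ identity and the fate of the floral meristem, had 6.35 and 6.25 in UNM, 4.52 and 4.43 in BCP and 4.82 and 4.75 in TCP. Its difference for BCP minus UNM was -1.83 (SE 0.12, adjusted p 2.44e-05), at least 1.57-fold lower. MADS17, its paralog, had 5.87 and 6.26 in UNM, 4.93 and 4.82 in BCP and 5.10 and 4.87 in TCP. Both genes passed the background level on the UNM arrays alone. The fall of MADS17, -1.19 (SE 0.17) for BCP minus UNM, was lost without UNM replicate 2 (-0.997) and after a repeated quantile normalization (-0.99), and its TCP minus UNM fall of 1.08 was lost without UNM replicate 2 (-0.89), without TCP replicate 2 (-0.96), with arrays centred on their 75th percentile (-0.72) and after the repeated quantile normalization (-0.999).

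The class B genes, whose products work as pairs of an AP3-like and a PI-like protein in lodicules and stamens, did not move together. MADS16, also named SPW1 and the AP3-like partner, had 8.95 and 9.01 in UNM, 6.04 and 6.03 in BCP and 7.18 and 7.17 in TCP. All 6 arrays were above background, and no arrays of different stages overlapped. It fell 7.70-fold in BCP (-2.95, SE 0.12, adjusted p 2.12e-06). It was then higher in TCP than in BCP by 1.14 (SE 0.12, adjusted p 2.47e-04), and was lower in TCP than in UNM (-1.81, SE 0.12). The rise in TCP did not pass after centring on the median (0.99), and was -0.10 after scaling by the hybridization controls.

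Of the PI-like partners, MADS4 rose in BCP while MADS2 gave no call. MADS4 had 7.19 and 6.68 in UNM, 8.59 and 8.60 in BCP and 8.55 and 8.80 in TCP, a difference of 1.66 (SE 0.19, adjusted p 3.96e-04) for BCP minus UNM, or 3.16-fold higher. BCP and TCP arrays overlapped, and the interval of TCP minus BCP was -0.38 to 0.53. The difference of MADS4 between TCP and UNM was 1.73 (SE 0.19), and 0.30 after scaling by the hybridization controls. MADS2 had 8.76 and 8.86 in UNM, 7.96 and 8.58 in BCP and 9.28 and 9.23 in TCP. Its difference of 0.98 (SE 0.21, adjusted p 0.00886) for TCP minus BCP missed the minimum of 1. This difference reached 1.30 without BCP replicate 2 and 1.01 without TCP replicate 2. Under other scalings it was 1.52 after a repeated quantile normalization and 1.18 with arrays centred on their 75th percentile. It was 0.84 after centring on the median and -0.25 after scaling by the hybridization controls. Within each array, where scaling cancels, MADS4 minus MADS2 was -1.57 and -2.18 in UNM, 0.63 and 0.02 in BCP and -0.74 and -0.43 in TCP. These values were lower on both UNM arrays than on any BCP or TCP array, and the change between stages was not tested.

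Of the class C genes MADS58, which acts in the determinacy of the floral meristem, had 5.30 and 5.23 in UNM, 3.73 and 3.63 in BCP and 3.87 and 3.76 in TCP. It fell by 1.59 (SE 0.12) in BCP, with no bound above 1, because its UNM signals were under the background level of the BCP arrays. MADS3, which is known for stamen identity and late anther development, was at 3.26 and 3.19 in UNM, 3.12 and 3.10 in BCP and 2.98 and 3.05 in TCP, under background on all 6 arrays. Of the class D genes, known for ovule identity, MADS13 had 4.45 and 5.11 in UNM, 3.35 and 3.63 in BCP and 3.74 and 3.33 in TCP. Its fall of 1.29 (SE 0.25) in BCP rested on 1 UNM array above background, and was lost without UNM replicate 2 (-0.96) or without BCP replicate 1 (-1.15, adjusted p 0.0520). MADS21 was between 2.68 and 2.85 on all arrays. The B-sister genes MADS29 and MADS30, of which MADS29 acts in seed development, were also under background throughout. MADS29 had 3.73 and 3.76 in UNM, 3.35 and 3.25 in BCP and 3.28 and 3.41 in TCP, with no call.

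The AP1/FUL-like genes, which promote the change of the meristem to flowering, went different ways. On its brightest probe set MADS14 had 6.05 and 6.31 in UNM, 7.67 and 7.20 in BCP and 8.47 and 8.35 in TCP. There the stages of MADS14 did not overlap, in the order UNM, BCP, TCP. It rose by 1.25 (SE 0.19, adjusted p 0.00166) in BCP, and its difference between TCP and UNM was 2.23 (SE 0.19, adjusted p 5.33e-05), or 4.69-fold. The step from BCP to TCP, 0.98 (SE 0.19, adjusted p 0.00621), missed the minimum of 1, and exceeded it without BCP replicate 1 (1.21) or without TCP replicate 2 (1.04). That step was 1.57 after a repeated quantile normalization, 1.17 with arrays centred on their 75th percentile and 0.83 after centring on the median. After scaling by the hybridization controls TCP minus UNM was 0.79, under the minimum, and TCP minus BCP -0.26. MADS20 had 4.23 and 4.57 in UNM, 5.00 and 5.09 in BCP and 5.69 and 5.33 in TCP, all under background. Its difference of 1.11 (SE 0.18) for TCP minus UNM passed, but not without UNM replicate 1 (0.94), without TCP replicate 1 (0.93) or after centring on the median (0.98), and it was -0.33 after scaling by the hybridization controls.

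MADS15, the closest relative of MADS14 among the members, had 7.53 and 7.22 in UNM, 4.29 and 4.98 in BCP and 5.52 and 5.31 in TCP. It fell by 2.74 (SE 0.24, adjusted p 9.71e-05) in BCP, at least 3.29-fold. No BCP or TCP array was above background for MADS15, while MADS14 was above it on all 6 arrays. MADS18 had 6.99 and 6.59 in UNM, 6.29 and 6.07 in BCP and 4.51 and 4.06 in TCP. Unlike MADS15 it was above background in BCP, and it fell in TCP (-1.89, SE 0.21, adjusted p 3.31e-04 for TCP minus BCP), at least 1.32-fold against BCP and 2.01-fold against UNM. The gene table also lists MADS2 among the synonyms of the MADS18 gene, and the genes were kept apart by their identifiers.

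The other probe sets bear on the members with several of them. Of the 4 probe sets of MADS14, the one with the suffix _x_at, for probes that can cross-hybridize, also rose in BCP (1.07, SE 0.18). From BCP to TCP the _x_at probe set differed by -0.16 (SE 0.18) with no call, opposite in sign to the brightest. A further one without a suffix rose in TCP (1.18, SE 0.27, but -0.06 once scaled by the hybridization controls). The one with the suffix _a_at, under background on all arrays, gave no call. For MADS15, the _x_at probe set fell in BCP (-1.92, SE 0.23), while the other 2 probe sets stayed under background with differences of -0.22 and 0.04. Both MADS15 probe sets that fell carry suffixes for probes shared by several transcripts, and the 1 probe set of MADS15 that carries none had signals near 3.10 in BCP and 3.07 in UNM. With the mean of all probe sets of a gene, MADS14 no longer passed in BCP (0.88) and MADS15 no longer differed by the minimum between TCP and UNM (-0.89).

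**Figure D3:**
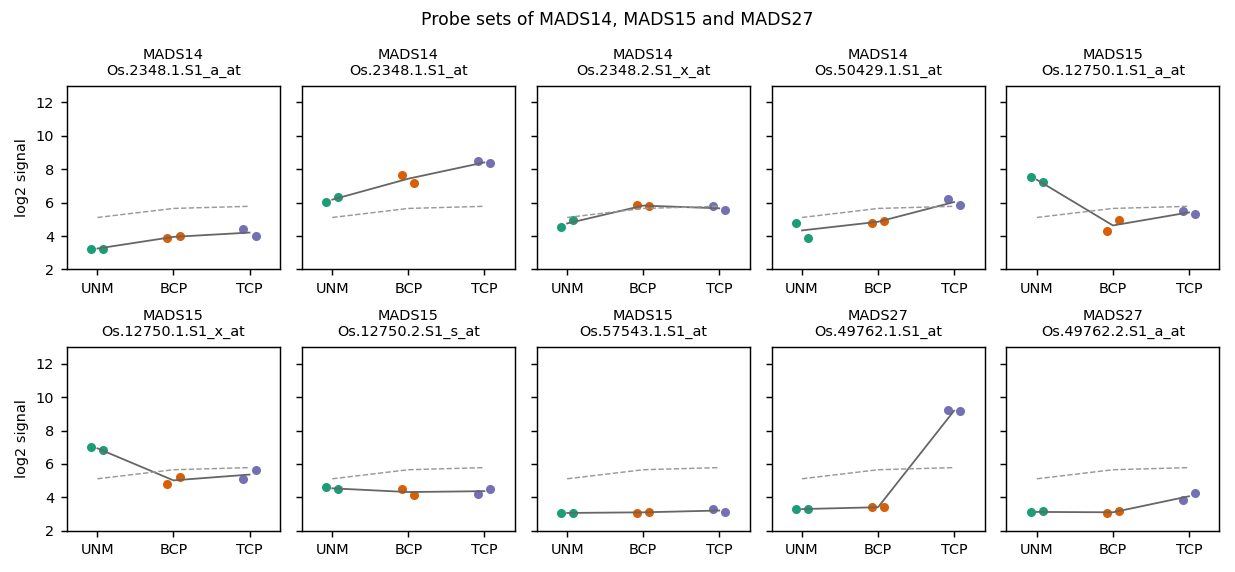
Log2 signal of each probe set of MADS14, MADS15 and MADS27, with a point per array, a line through the stage means and a dashed line for the reporters' 95th percentile averaged over the arrays of a stage. The 2 probe sets of MADS15 that lay above the dashed line in UNM are those that fell, and the probe sets of MADS27 differ in size, at 5.78 and 0.96 for TCP minus BCP.

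The SVP-like genes, which repress the floral fate of meristems and act in brassinosteroid responses, each had a course of their own. MADS22 had 9.06 and 8.69 in UNM, 10.75 and 10.72 in BCP and 8.42 and 8.33 in TCP. It rose 3.63-fold in BCP (1.86, SE 0.16, adjusted p 7.14e-05) and fell 5.14-fold in TCP (-2.36, SE 0.16, adjusted p 2.29e-05), and all 6 arrays were above background. Its probe set has the suffix _s_at, which marks probes shared by several transcripts. MADS47, also named MDP1, had 8.19 and 8.17 in UNM, 8.04 and 8.19 in BCP and 5.04 and 5.47 in TCP. UNM and BCP overlapped, with an interval of -0.46 to 0.34 for BCP minus UNM, and the TCP arrays stood below both. It fell by 2.86 (SE 0.17, adjusted p 1.34e-05) in TCP, at least 5.06-fold. MADS55 had 7.52 and 7.61 in UNM, 5.39 and 5.67 in BCP and 4.78 and 4.58 in TCP, and fell by 2.03 (SE 0.15, adjusted p 3.94e-05) in BCP, at least 3.76-fold. Its further step of -0.85 (SE 0.15, adjusted p 0.00397) in TCP missed the minimum.

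The SOC1-like genes are regulators of flowering time. MADS56, which delays flowering in long days, had 5.80 and 5.27 in UNM, 8.23 and 7.99 in BCP and 4.67 and 4.78 in TCP. Both BCP arrays were above all others, and the TCP arrays were the lowest and under background. It rose 5.95-fold in BCP (2.57, SE 0.20, adjusted p 4.36e-05), the greatest rise of a member in that comparison, and fell by 3.38 (SE 0.20, adjusted p 1.22e-05) in TCP, at least 5.02-fold. MADS50, a promoter of flowering, had 5.11 and 4.79 in UNM, 5.00 and 4.57 in BCP and 4.27 and 4.38 in TCP, with no call and all arrays under background.

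The AGL17-like genes are known for roles in roots and nutrient response, and MADS27 of this clade, a regulator of root growth under nitrate, had the greatest difference of all members. Its signals were 3.32 and 3.27 in UNM, 3.41 and 3.41 in BCP and 9.23 and 9.15 in TCP. The 4 earlier arrays lay under background and the TCP arrays far above it. MADS27 rose by 5.78 (SE 0.12, adjusted p 4.52e-07) in TCP against BCP and by 5.89 (SE 0.12, adjusted p 7.63e-08) against UNM. As deposited these rises were at least 11.6-fold and 16.9-fold, bounds that were not recomputed under the scaling by the hybridization controls. The TCP minus BCP difference was 4.54 after scaling by the hybridization controls (4.45 for TCP minus UNM) and between 5.63 and 6.06 under the other scalings, and the mean of both probe sets of the gene gave 3.37. The other probe set of the gene, with the suffix _a_at, had 3.09 and 3.16 in UNM, 3.05 and 3.16 in BCP and 3.85 and 4.28 in TCP. Its difference of 0.96 (SE 0.17, adjusted p 0.00369) for TCP minus BCP had the same direction, missed the minimum, and lay under background throughout, so that the size of the rise rests on 1 probe set. The clade's other members MADS23, MADS25 and MADS57 and the AGL12-like genes MADS26 and MADS33 were under background on all arrays and gave no call. The members under background on all 6 arrays numbered 11 of 31, or with MADS20 left out 10 genes without a call, and their signals ran from 2.57 to 5.69. Over all genes 22.2% were under background on all arrays.

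Markers of other cells moved beside the falls in BCP. The list of anther wall markers, from tissue whose tapetum surrounds and feeds the microspores, held 21 symbols, and 11 genes had a probe set. Of these 11 markers 8 fell in BCP and 0 rose, where 25.1% of all genes fell and 17.1% rose. Their median difference was -2.40. Their summed linear signal was 6484 and 6674 in UNM, 517 and 484 in BCP and 253 and 231 in TCP. In UNM 9 of the 11 were above background, among them C4, C6, CP1 and CYP703A3, and in BCP GAMYB alone, at 8.37. Over all genes 68.6% were above it on both UNM arrays and 55.2% on both BCP arrays. RAFTIN1 and PTC1 were under background in UNM, at 4.26 and 4.46. The photosynthesis gene CAB2R was at 11.35 in UNM, 4.55 in BCP and 3.94 in TCP, while RBCS and RCA did not fall. The actin control's signal at its 3′ end minus that at its middle, a sign of RNA quality, was 3.18 and 3.23 in UNM, 1.21 and 1.18 in BCP and 1.40 and 1.34 in TCP. The same measure of the GAPDH control was 1.29 and 0.71 in UNM, 1.10 and 0.91 in BCP and 1.60 and 1.51 in TCP, so that UNM and BCP overlapped there. The part of anther wall tissue or of RNA quality in the falls of the MADS box genes was not tested. All 6 measured markers of the vegetative cell of pollen rose in BCP, with a median difference of 7.89. From BCP to TCP 0 of them were called, where 37.1% of all genes were. Of the markers of generative cells and sperm only KIN12E was measured, so that these cells could not be followed by a list.

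**Figure D4:**
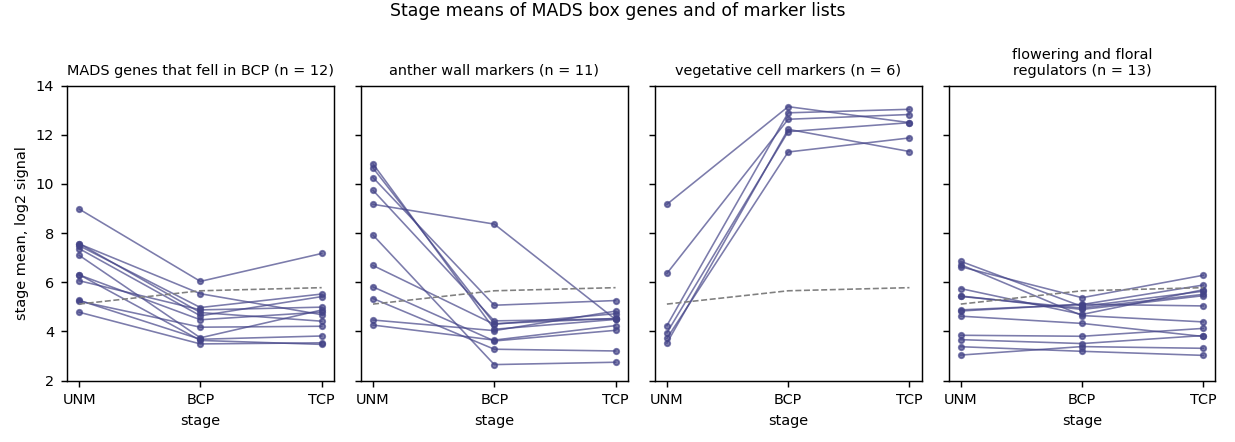
Stage means of log2 signal for the 12 MADS box genes that fell in BCP, 11 anther wall markers, 6 vegetative cell markers and 13 regulators of flowering and flower form, with a line per gene and a dashed line for the reporters' 95th percentile averaged over the arrays of a stage. The MADS box genes shown and the anther wall markers other than PTC1 have their highest mean in UNM, and the vegetative cell markers are highest in BCP or TCP.

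Other regulators of flowering and flower form were read from a list of symbols, of which 13 genes were measured. Of all genes 25.1% fell and 17.1% rose in BCP, and of these 13 regulators 4 fell and 0 rose. They were EHD3, a promoter of flowering (-2.07, SE 0.18), OSH1, a homeobox gene of meristems (-1.84, SE 0.14), FON1, a receptor kinase that limits the floral meristem (-1.26, SE 0.17), and SPL16, an SBP box factor of grain shape (-1.05, SE 0.16). In TCP against BCP SPL16 rose (1.01, SE 0.16) and 0 fell, where 8.52% of all genes rose and 28.6% fell. The 4 arrays compared were under background for SPL16, and its difference was -0.23 after scaling by the hybridization controls. None of the 13 was above background on either BCP array, whereas 6 were on each UNM array. Over all genes 68.6% were above it on both UNM arrays and 55.2% on both BCP arrays. The level itself was higher in BCP (5.60 and 5.70) than in UNM (5.22 and 5.00). The UNM signals of APO2 (5.55 and 5.33) and LAX1 (5.53 and 5.31) were under the BCP level, and neither gene was called. DL, FZP, SPL14, HD1, HD3A and DTH8 were under background on every array, and HD3A, the florigen, stood at 3.84 in UNM, 3.80 in BCP and 4.12 in TCP.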

How the data were processed

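The deposited values are log2 signals, 1 per probe set and array, which the authors made with RMA (per the submitters' processing notes). No source used here gives its version or says which arrays were normalised together. They were used as deposited. Probe sets were paired with genes by the platform's annotation, and names came from the RefSeq gene table (assembly ASM3414082v1), of which only names and the order of neighbouring genes were used; all 31 members were matched by gene identifier. Of the 57381 probe sets, 187 controls were left out of the tests.

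All 6 arrays entered 1 limma fit (limma 3.58.1, R 4.3.3) on stage, moderated by empirical Bayes (residual degrees of freedom 3, prior 3.87), two-sided, and the fit was tested on simulated data. The p-values cover only the spread between replicates, and 2 arrays a stage limit the precision. The 3 comparisons share stages. A gene with several probe sets is represented by its brightest on average. Every member is named, those without a call in groups. The members and lists were chosen with earlier results of these data known. From the lists, 8 genes that share only a symbol with the gene meant were left out, by their other names. Alternatives were other scalings, filters, variance priors, minimum differences, a replicate block, 2 stages at a time, the mean over probe sets and leaving out each array.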

Additional observations from a re-analysis of the deposited data

How the results depend on the processing

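Of 240 recomputed counts of MADS box genes or probe sets, 206 were within 1.5 times the reported one, and 27 of the 41 calls of single genes were kept under every alternative other than the minimum difference of 2. A minimum difference of 2 moved 11 of the counts by more, and scaling by the hybridization controls 8. With that scaling, in TCP minus BCP 22 genes (26 probe sets) then fell and 1 gene (1 probe set) rose, and in TCP minus UNM 26 genes (30 probe sets) fell and 1 gene (1 probe set) rose. Because it takes a constant off every probe set, 1.24 in TCP minus BCP, 1.44 in TCP minus UNM and 0.20 in BCP minus UNM, it turned the sign of 33 differences of single genes, 11 of them called in neither setting. For the other 22 the TCP minus BCP difference became -1.16 for MADS4, -1.20 for MADS5, -0.11 for MADS7, -1.19 for MADS13, -0.10 for MADS16, -1.13 for MADS17, -1.20 for MADS21, -1.19 for MADS23, -1.20 for MADS25, -1.09 for MADS26, -1.19 for MADS29, -1.23 for MADS30, -1.20 for MADS33 and -1.10 for MADS58, and the TCP minus UNM difference -0.33 for MADS20, -1.30 for MADS21, -1.27 for MADS23, -1.36 for MADS25, -1.05 for MADS26, -1.44 for MADS30, -1.05 for MADS33 and -1.14 for MADS57.

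With probe sets shared by several transcripts left out, 7 genes (7 probe sets) fell and 3 probe sets rose in BCP minus UNM, 9 genes (9 probe sets) fell in TCP minus UNM, and MADS15, now on its dim probe set, stood at 0.037 for BCP minus UNM and 0.14 for TCP minus UNM; fewer genes were tested there. With a minimum difference of 2, 7 genes (7 probe sets) fell and 1 (1) rose in BCP minus UNM, 1 gene (1 probe set) rose in TCP minus BCP, 6 genes (6 probe sets) fell and 2 (2) rose in TCP minus UNM, and 13 changed across the stages. With no minimum, 6 genes and 8 probe sets rose in TCP minus BCP and 8 probe sets in TCP minus UNM. Rises in TCP minus BCP numbered 5 genes after a repeated quantile normalization, 5 genes and 7 probe sets after centring on the 75th percentile (8 probe sets in TCP minus UNM) and 1 gene and 2 probe sets after centring on the median. Leaving out each array in turn gave 3 to 5 genes there, with 5 without BCP replicate 2.

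Same-numbered arrays did not deviate together over the probe sets (correlations of -0.05 for BCP with UNM, -0.07 for TCP with UNM and 0.01 for TCP with BCP). Such correlations cannot decide whether replicates of the same number shared an origin, which the labels do not state. With the replicate block 12 genes fell and 4 rose in BCP minus UNM, and no call of a member changed. Signals of 11 genes under background on every array give no reliable order of the stages. Of these, MADS20 was called all the same, and its call is part of the counts above.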

Other observations

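In the RefSeq gene table of assembly ASM3414082v1 MADS14 and MADS34 lie next to each other on chromosome 3, and so do MADS13 and MADS33 on chromosome 12. In BCP against UNM MADS14 rose (1.25) and its neighbour MADS34 fell (-2.68, at least 1.58-fold lower, since MADS34 was under background in BCP). MADS33 was under background on all arrays and MADS13 on all but 1 UNM array, so that no comparison of this pair is given.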
